A study of Drosophila melanogaster with 2 samples.

Results

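Transfer RNA (tRNA) genes were examined for nearby binding of CG8281 in Drosophila melanogaster embryos. The members are the 290 genes that Ensembl release 115 annotates as tRNA on the chromosome arms, of 18277 annotated genes there once transposable elements are left out. They were set beside 13968 protein-coding genes and 269 snoRNA genes (small nucleolar RNAs) on the same arms. A tRNA gene was counted as bound in a peak list when a summit, the highest point of a peak, lay within 500 bp of its transcription start site (TSS). Each tRNA gene has a single TSS, whereas a gene with several TSSs was counted as bound when any of them had such a summit. Classes with several TSSs per gene, such as protein-coding genes, thus had more sequence per gene in which a summit could fall.

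Binding was measured by chromatin immunoprecipitation and sequencing (ChIP-seq) on whole embryos aged 0 to 20 hours. All embryos came from a transgenic line in which the C-terminal end of CG8281 is fused to green fluorescent protein (GFP), and chromatin was pulled down through the GFP. The 2 samples are biological replicates of 1 group, with no other genotype, treatment or age, so every result is a description of the peaks and no test between groups of samples exists. The embryos mix all tissues and many stages, and the labels used here do not name the promoter that drives the fusion.

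The authors' optimal list holds the peaks kept by their irreproducible discovery rate step, which compares lists for reproducibility, and the pooled list and the list of each replicate hold 30000 peaks each. Each peak has a signal set by the authors' peak caller, whose scaling is not stated, so a signal was ranked only within its own list, with rank 1 the strongest. The lists hold no read counts, so sequencing depth is unknown. The intervals given below are exact Clopper-Pearson 95% intervals and cover counting error only. No signal track of the control or of the replicates was analysed here, so weak peaks could not be set beside the control at the same genes, and a gene called bound is only one with a listed summit nearby.

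tRNAs carry amino acids to the ribosome, where their anticodon reads the codon. Their genes are transcribed by RNA polymerase III, and their promoter lies inside the transcribed sequence as an A box and a B box. Transcription factor TFIIIC binds these boxes and places TFIIIB (Brf and Bdp1 with, at Drosophila tRNA genes, a factor related to the TATA-binding protein) just upstream of the start, which recruits the polymerase. Fly genomes hold many copies of most tRNA genes, often in clusters.

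The members fell into 22 isotypes and 45 anticodon families. Only 95 distinct sequences were present among the 290 genes, and 238 genes had at least 1 identical copy elsewhere on the arms. Genes were 71 to 186 bp long with a median of 73 bp. Joined wherever neighbouring TSSs lay 1000 bp or less apart, they formed 175 loci, of which 107 held 1 gene and 68 held 2 to 7 genes. The clustered loci held 183 of the genes, and clustered copies were counted as 1 locus where loci are named.

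The annotation was checked against the promoter letters, read on the sense strand of each gene. The B box core GTTCNANNC was present in 271 of the 290 genes (93.4%), and in 1.69% of 19630 windows of 73 bases that start at a protein-coding TSS. The A box core TNGCNNAG was present in 144 tRNA genes (49.7%) and in 5.96% of those windows. Both cores were found in 125 genes.

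Sequences of 5 members show the kinds of peak found. The first 3 are 101 bases of dm6 centred on a replicate 2 summit that lay on or beside the gene, read on the gene's strand, with the bases of the tRNA gene in capitals. tRNA:Val-CAC-2-3 is the only gene with an optimal summit inside it (window chr3R:7472059-7472159, minus strand), tRNA:Asp-GTC-1-5 had a replicate 2 summit 9 bp upstream of its start (chr2L:8541702-8541802, plus strand), and tRNA:Gln-TTG-1-3 had a replicate 2 summit and no replicate 1 peak (chr3R:26947513-26947613, minus strand).
tRNA:Val-CAC-2-3: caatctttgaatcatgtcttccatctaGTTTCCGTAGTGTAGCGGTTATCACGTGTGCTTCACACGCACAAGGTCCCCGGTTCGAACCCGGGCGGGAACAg
tRNA:Asp-GTC-1-5: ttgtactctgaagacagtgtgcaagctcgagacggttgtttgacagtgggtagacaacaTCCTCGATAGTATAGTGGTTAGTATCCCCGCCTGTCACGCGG
tRNA:Gln-TTG-1-3: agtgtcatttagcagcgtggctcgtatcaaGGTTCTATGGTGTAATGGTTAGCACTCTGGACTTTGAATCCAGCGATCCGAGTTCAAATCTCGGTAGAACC

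The other pair had strong summits upstream, outside the gene. Their own tRNA genes are shown with the A and B box cores in capitals, since the summits did not lie on them. tRNA:Tyr-GTA-1-8 lies at chr3R:8669081-8669174 on the minus strand and tRNA:Leu-TAA-2-1 at chr3R:24112964-24113047 on the plus strand.
tRNA:Tyr-GTA-1-8: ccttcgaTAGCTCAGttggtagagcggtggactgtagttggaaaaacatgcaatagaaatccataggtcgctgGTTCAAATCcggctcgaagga
tRNA:Leu-TAA-2-1: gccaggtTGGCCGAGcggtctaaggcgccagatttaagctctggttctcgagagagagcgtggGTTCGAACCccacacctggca

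Optimal peaks close to tRNA genes were few. An optimal summit lay within 500 bp of 12 of the 290 tRNA genes (4.14%, interval 2.16 to 7.12), against 10.4% of all annotated genes and 12.2% of protein-coding genes. For snoRNA genes the share was 4.83%, with an interval of 2.6 to 8.12. The 12 genes belonged to 10 of 175 loci (5.71%, interval 2.77 to 10.3). Of the 12, 4 had a summit that also lay within 500 bp of a protein-coding TSS, which left 8 tRNA genes (2.76%, interval 1.2 to 5.36) with a summit away from such promoters.

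The nearest optimal summit was at a median distance of 10817 bp from a tRNA TSS. The member furthest inside the limit, tRNA:Ala-TGC-2-1, had its summit 454 bp away, and the nearest outside it, tRNA:Ile-AAT-1-9, had one 535 bp away. A further 12 genes had their nearest optimal summit over 500 and up to 1000 bp away. The 500 bp windows around tRNA TSSs cover 219868 bp, or 0.16% of the arms, and 0.16% of the optimal list is 6.27 peaks, while 10 optimal summits were found in them.

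The strongest of the 10 loci is on arm 3R in a cluster of 3 tyrosine tRNA genes inside an intron. Its optimal peak at chr3R:8669228-8669502 had a signal of 584.0, rank 536. The summit was 196 bp upstream of tRNA:Tyr-GTA-1-8. The overlapping peaks had rank 527 in replicate 1 (signal 284.3) and rank 577 in replicate 2 (signal 290.2). Both replicates therefore placed it at about the same height in their lists, and both had the summit 200 to 208 bp upstream. The same summit was 248 bp from a TSS of the protein-coding gene CG8036, so the peak cannot be assigned to the tRNA gene alone.

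Next came the locus of tRNA:Leu-CAG-1-2, a cluster of 3 leucine tRNA genes on arm 3L outside any protein-coding gene. The optimal peak at chr3L:8059876-8060130 had a signal of 343.6, rank 1102, with its summit 299 bp downstream of the TSS and past the end of the gene. It ranked 1162 in replicate 1 (signal 160.6) and 1072 in replicate 2 (signal 182.8). The nearest protein-coding TSS, of bip1, was 1284 bp from the summit.

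A summit shared by both genes of the serine locus tRNA:Ser-TGA-2-1 and tRNA:Ser-TGA-1-1, on arm 2R, had a signal of 269.8 and rank 1472. It lay 187 bp upstream of tRNA:Ser-TGA-2-1 and 2009 bp from the nearest protein-coding TSS. The overlapping replicate 1 peak had rank 3444 (signal 64.5), and the stronger replicate 2 peak had rank 945 (signal 202.8). This locus stood higher in replicate 2.

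For phenylalanine, 2 loci had an optimal summit. On the X chromosome the peak at chrX:6744126-6744340, 294 bp downstream of the TSS of tRNA:Phe-GAA-1-2, had a signal of 268.7 and rank 1481, with rank 1738 in replicate 1 (signal 116.5) and 1349 in replicate 2 (signal 155.7). Its summit was 11 bp from a TSS of RpL17, which encodes a protein of the large ribosomal subunit. On arm 2L the peak at chr2L:8570310-8570713, 376 bp upstream of tRNA:Phe-GAA-1-3, had a signal of 144.1 and rank 3232, the weakest of the 10. It ranked 4053 in replicate 1 (signal 56.1) and 3786 in replicate 2 (signal 74.2), and lay in an intron of Sema1a, an axon guidance gene, 27182 bp from its nearest TSS.

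The only optimal summit inside a tRNA gene was at tRNA:Val-CAC-2-3, which lies at chr3R:7472060-7472132 outside protein-coding genes. This gene belongs to a set of 6 tRNA genes with identical sequence. Its peak, chr3R:7472023-7472157, covered the whole gene with 135 bp, had a signal of 204.0 and rank 2109, and its summit lay 23 bp into the gene. The replicate 2 peak had the same summit position, rank 1317 and signal 158.5. In replicate 1 the summit lay 26 bp into the gene, with rank 6000 and signal 39.9. The replicates agree on the position, and the locus stood lower in replicate 1. The valine window printed above is this summit, and its capitals hold the B box core and not the A box core.

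On arm 2R, tRNA:Ala-TGC-2-1 had a peak of signal 201.4, rank 2145, with its summit 454 bp downstream of the TSS. That peak overlapped a replicate 2 peak of rank 1499 (signal 144.5) and a replicate 1 peak of rank 8534 (signal 30.2), whose own summit lay 510 bp away and so outside the limit. tRNA:Trp-CCA-2-2 had a summit 300 bp upstream with signal 177.6 and rank 2498. It ranked 1894 in replicate 1 (signal 108.1) and its stronger overlapping peak 3814 in replicate 2 (signal 73.8). This summit lay in an exon of CG30122, 13 bp from its TSS.

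The leucine gene tRNA:Leu-TAA-2-1, with its boxes shown above, had its optimal peak at chr3R:24112562-24112965, which reached just into the gene. The peak had signal 160.5 and rank 2832. From the summit it was 200 bp to the start of the tRNA gene and 375 bp to a TSS of CG13605. It ranked 4838 in replicate 1 (signal 48.1) and 2317 in replicate 2 (signal 104.9). The arginine pair tRNA:Arg-CCT-1-2 and tRNA:Arg-CCT-1-3 on 2R shared a summit 209 bp upstream of the former, with signal 155.4 and rank 2960. It ranked 5513 in replicate 1 (signal 42.7) and 2511 in replicate 2 (signal 99.4), and was 4426 bp from the nearest protein-coding TSS.

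Upstream positions made up 6 of the 10 optimal summits (60%, interval 26.2 to 87.8), and the others lay downstream of the TSS, 1 of them inside the gene. Their median distance from the TSS was 252 bp and their median rank 2127. In the 201 bp around these 10 summits the B box core, searched on both strands, was found in 2 and the A box core in 1. Among all optimal summits, 6.2% held the B core and 26.8% the A core, counted with no regard to overlap between motifs. The DRE letters TATCGATA, known as the site of the core promoter factor DREF, were in 1 of the 10 and in 1.63% of all optimal summits. GAGAG, the core read by GAGA factor, was in 3 (22.9% of all), TATAAA in 4 (32.1% of all) and the Motif 1 core GGTCACAC in 0 (0.995% of all). With 10 summits these shares have wide counting intervals.

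Below the optimal list the replicates differed. Of the 290 tRNA genes, 161 had a replicate 2 summit within 500 bp (55.5%, interval 49.6 to 61.3) and 52 had a replicate 1 summit (17.9%, interval 13.7 to 22.8). Over all annotated genes the shares were 32.1% in replicate 2 and 37.4% in replicate 1, and over protein-coding genes 33.8% and 41.2%. tRNA genes thus stood above the share of all genes in replicate 2 and below it in replicate 1. The 500 bp windows around tRNA TSSs, 0.16% of the arms, held 51 replicate 1 and 149 replicate 2 summits. For a list of 30000 peaks, 0.16% is 48 peaks. In the pooled list 103 tRNA genes had a summit (35.5%, interval 30 to 41.3), beside 33.7% of all genes.

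The difference between replicates lay mostly in weaker peaks. When each replicate gave as many of its strongest peaks as the optimal list holds, 8 tRNA genes were bound in replicate 1 (2.76%, beside 11.9% of all genes) and 17 in replicate 2 (5.86%, beside 8.85% of all genes). With the 10000 strongest the shares were 7.24% and 20.3%, and with the 20000 strongest 14.5% and 41.4%. Over the same steps protein-coding genes went from 25.2% to 34.6% in replicate 1 and from 19.7% to 28.3% in replicate 2. snoRNA genes ended at 18.6% in replicate 1 and 13.4% in replicate 2, lower in replicate 2 where tRNA genes were higher.

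**Figure D1:**
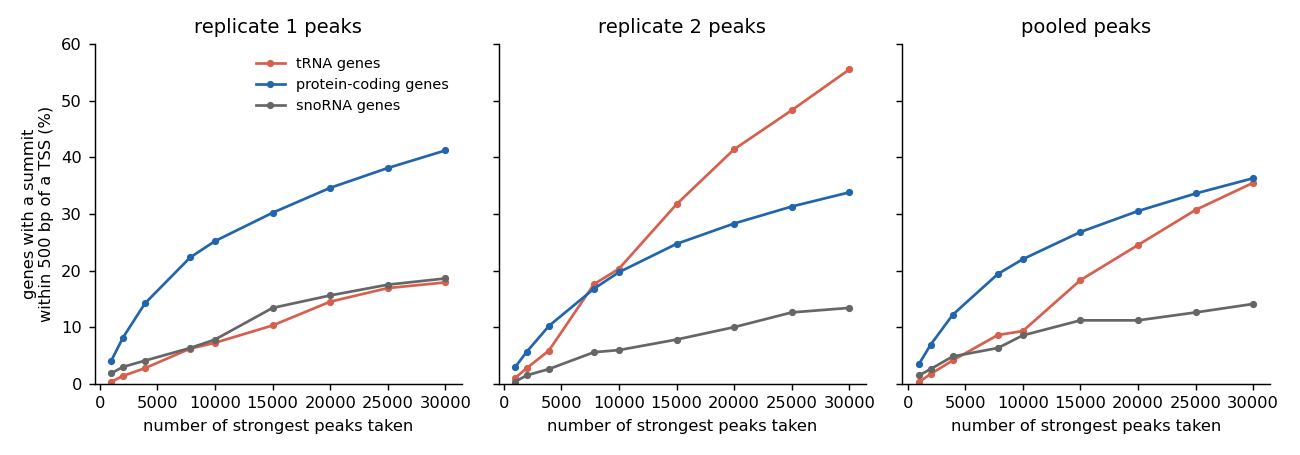
Share of genes with a summit within 500 bp of a TSS (%, vertical axis) against the number of strongest peaks taken from each list (horizontal axis), for tRNA, protein-coding and snoRNA genes. In replicate 2 the tRNA line crosses the protein-coding line before 7842 peaks and ends at 55.5%, while in replicate 1 it stays beside the snoRNA line and ends at 17.9%.

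Counted by locus, 93 of 175 loci had a replicate 2 peak (53.1%), 47 a replicate 1 peak (26.9%) and 70 a pooled peak (40%). Both replicates had a peak at 34 loci, which is 72.3% of those with a replicate 1 peak and 36.6% of those with a replicate 2 peak. A peak in replicate 2 alone was found at 59 loci, one in replicate 1 alone at 13, and in neither at 69. No list at all had a peak at 66 loci.

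**Figure D2:**
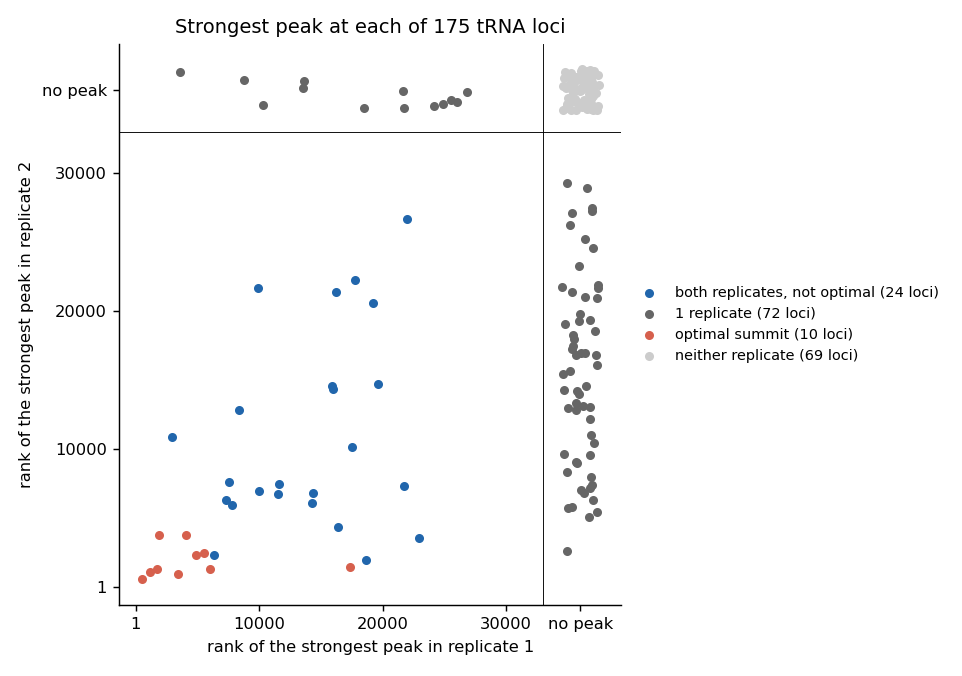
Rank of the strongest peak within 500 bp at each of the 175 tRNA loci in replicate 1 (horizontal axis) and replicate 2 (vertical axis), with 1 the strongest and loci without a peak set in the outer strips (scattered there only for visibility). The 59 loci with a replicate 2 peak alone fill the right strip, 13 loci with a replicate 1 peak alone lie in the top strip, and the 10 loci with an optimal summit are drawn in red, 9 of them at replicate 1 rank 6000 or better and the alanine locus at 17344.

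The position of the summits differed as well. In replicate 2 the density of summits was 9.06 per 10 kb within 100 bp of a tRNA TSS (52 summits), 5.98 per 10 kb from there to 500 bp, and 3.91 per 10 kb at 1000 to 2000 bp. In replicate 1 it was 0.697 per 10 kb within 100 bp (4 summits), 2.83 at 100 to 500 bp and 2.61 at 1000 to 2000 bp. The mean over the arms was 2.18 per 10 kb in either list, since both hold 30000 peaks. Of these distances, replicate 2 was densest within 100 bp of the tRNA start, where replicate 1 was less dense than in its flanks. In steps of 100 bp, replicate 2 was nearly level from 300 bp upstream to 100 bp downstream, at 8.63 to 9.5 per 10 kb. It was 5.13 per 10 kb at 100 to 200 bp downstream. The pooled list had 3.83, 4.31 and 3.16 per 10 kb at the same distances.

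**Figure D3:**
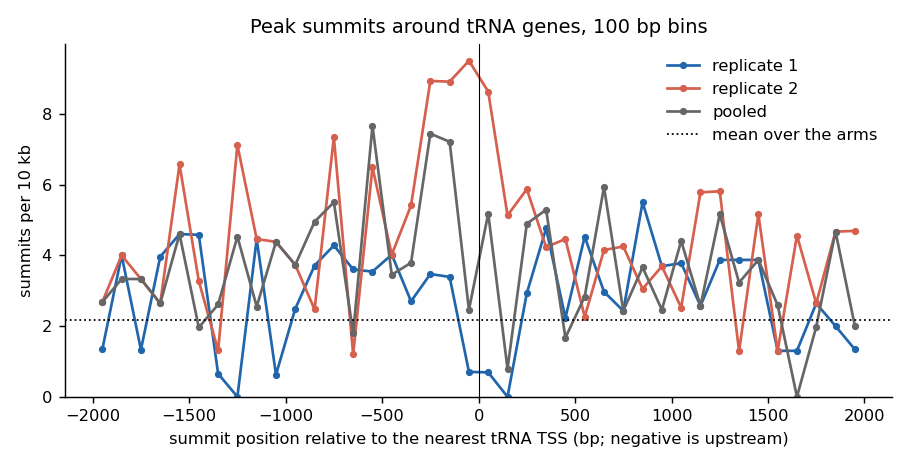
Density of summits (per 10 kb of sequence at that distance, vertical axis) in 100 bp bins around the nearest tRNA TSS (horizontal axis, bp, negative upstream) for replicate 1, replicate 2 and the pooled list, with the mean over the arms dotted. Replicate 2 is highest in the 100 bp just upstream of the start at 9.5 per 10 kb, where replicate 1 is at 0.704.

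As shares of genes, 52 tRNA genes (17.9%, interval 13.7 to 22.8) had a replicate 2 summit within 100 bp, beside 12.6% of all genes and 14.1% of protein-coding genes. In replicate 1 the number was 4 (1.38%, interval 0.377 to 3.49), beside 12.1% of all genes and 14.3% of protein-coding genes. The 52 replicate 2 summits lay at 45 loci. Of them 27 were upstream of the start, 21 inside the gene and 4 past its end, with a median position 8.5 bp upstream. Within 500 bp of a protein-coding TSS were 8 of the 52, and 18 were over 5000 bp from one. Of all 290 tRNA genes, 32 lay within 500 bp of a protein-coding TSS and 110 over 5000 bp away. Among all 30000 replicate 2 peaks, 6063 had a summit within 500 bp of such a TSS.

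These summits belonged to weak peaks. The median signal was 26.9 (range 16.2 to 158.5) and the median rank 16351. The peak at tRNA:Val-CAC-2-3, of rank 1317, was the only one strong enough to fall within the top of its list, taken at the length of the optimal list. After it in rank came tRNA:Asn-GTT-1-10 (rank 5121, signal 60.1), 19 bp upstream, and the initiator methionine gene tRNA:iMet-CAT-1-2 (rank 5470, signal 57.3), 39 bp into the gene. tRNA:Asp-GTC-1-5 had rank 5978 and signal 53.8, and tRNA:Gln-TTG-1-3 had rank 6340 and signal 51.6. The glutamine peak at chr3R:26947373-26947752 overlapped no replicate 1 and no pooled peak, and its summit lay 20 bp into the gene, in the window printed above. The glutamine summit was also 267 bp from a TSS of the protein-coding gene Spag1, and the aspartate summit 395 bp from a TSS of Sema1a. Neither peak can therefore be assigned to the tRNA gene alone.

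Replicate 1 overlapped few of them. Of the 52 replicate 2 peaks with a summit within 100 bp of a tRNA TSS, 7 overlapped a replicate 1 peak by at least 1 bp (13.5%, interval 5.59 to 25.8), whereas 50.2% of all replicate 2 peaks did. For replicate 2 summits within 100 bp of a protein-coding TSS the share was 54.6%. Peaks at 500 to 2000 bp from a tRNA TSS overlapped a replicate 1 peak in 45.7% of cases, so the low share was found close to the genes. A pooled peak overlapped 25 of the 52 (48.1%), against 78.2% of all replicate 2 peaks.

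The low share was also found within bands of rank. Among ranks 3922 to 15000, 4 of 21 such tRNA peaks overlapped replicate 1 (19%, interval 5.45 to 41.9), against 56.4% of all replicate 2 peaks of these ranks. Among ranks 15001 to 30000 it was 2 of 30 (6.67%, interval 0.818 to 22.1), against 34.2%. The strongest peaks did overlap: of 15 replicate 2 peaks ranked above these bands within 500 bp of a tRNA TSS, 14 overlapped a replicate 1 peak. In the other direction, 36 of the 51 replicate 1 peaks within 500 bp overlapped a replicate 2 peak (70.6%, interval 56.2 to 82.5), beside 49.6% of all replicate 1 peaks. At that same distance of 500 bp, 28.9% of replicate 2 peaks overlapped a replicate 1 peak. The share was 28.8% among ranks 3922 to 15000 and 16% among ranks 15001 to 30000.

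**Figure D4:**
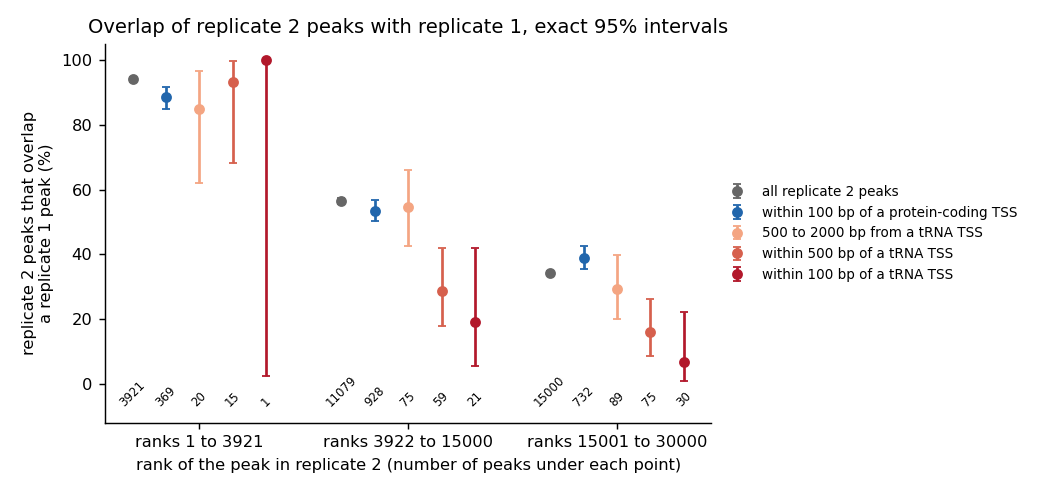
Share of replicate 2 peaks that overlap a replicate 1 peak (%, vertical axis, with exact 95% intervals) in 3 bands of replicate 2 rank (horizontal axis), for all peaks and for peaks near protein-coding or tRNA TSSs. In the middle band 19% of peaks within 100 bp of a tRNA TSS overlap replicate 1 against 56.4% of all peaks. Within 500 bp of a tRNA TSS, 28.8% do in the middle band and 14 of 15 peaks in the top band.

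The letters at these summits are those of tRNA genes, as their position implies. Of the 52 windows of 201 bp, 67.3% held the B box core and 59.6% the A box core, against 6.13% and 26.7% of all replicate 2 summits. None held the DRE letters or the Motif 1 core, which 1.13% and 0.76% of all replicate 2 summits held. GAGAG was in 32.7% (23.4% of all) and TATAAA in 25% (25.6% of all). In the genes themselves, the B core was in 50 of the 52 genes and in 221 of the other 238, and the A core in 26 and 118.

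Identical copies make part of this sequence hard to place. In the 100 bp from the tRNA start, which run past the end of most genes, 58.6% of 36-base words occur only at that place in the genome, against 97.5% in the 100 bp upstream and 91.3% to 96.5% in the other 100 bp steps out to 500 bp. The word length was chosen for this count, and the labels used here state neither the read length nor the treatment of reads with several matches. The median share of unique words within 100 bp of the start was 79.1% both for the 52 genes with a replicate 2 summit there and for the 238 without. By number of copies, 5 of 52 genes with no identical copy had a replicate 2 summit within 100 bp, 18 of 103 genes in sets of 2 to 5 copies, and 29 of 135 in sets of 6 or more. No intervals were computed for these counts, and genes in a cluster are not independent. Within 500 bp the replicate 2 shares were 50%, 46.6% and 64.4% in the same order, and the replicate 1 shares 26.9%, 13.6% and 17.8%. The part of read placement in the difference between replicates was not tested.

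Most isotypes took part. Replicate 2 had more bound genes than replicate 1 in 19 of 22 isotypes, and the same number in the other 3, which were histidine, tryptophan and selenocysteine. The 19 glutamate genes had 13 bound in replicate 2 and 0 in replicate 1, and the 6 initiator methionine genes, which start translation, had 4 and 0. For the 19 lysine genes it was 10 and 1, and for the 26 arginine genes, the largest isotype, 14 and 2. Alanine, with 17 genes, had the highest share in both, with 14 bound in replicate 2 and 6 in replicate 1.

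Within isotypes, anticodon families differed. The 13 Lys-CTT genes had 9 bound in replicate 2 and 0 in replicate 1, while the 6 Lys-TTT genes had 1 in each. Within 100 bp of the start, 66.7% to 80.6% of 36-base words were unique for Lys-CTT genes and 17.9% to 88.6% for Lys-TTT genes. Of 10 Arg-ACG genes 8 were bound in replicate 2, and of 10 Arg-TCG genes 2, with 0 in replicate 1 for both. The unique share was 77.1% to 80.1% for Arg-ACG genes and 29.9% to 98% for Arg-TCG genes, and its part in these family differences was not tested. Copies in a cluster can share a peak, so these counts are not independent.

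**Figure D5:**
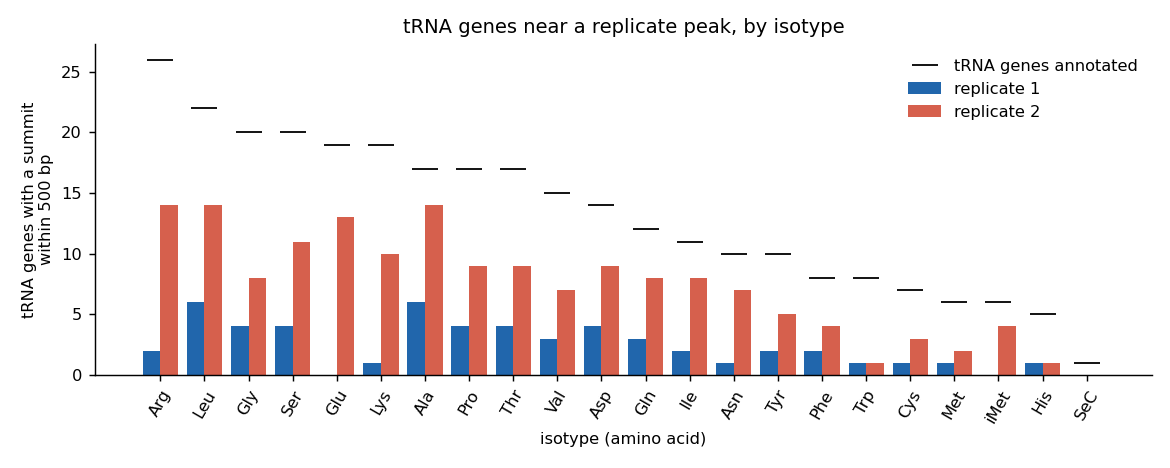
Number of tRNA genes with a summit within 500 bp (vertical axis) by isotype (horizontal axis) in replicate 1 and replicate 2, with the number annotated as a dash. Replicate 2 is higher in 19 of 22 isotypes, and glutamate has 13 of 19 genes in replicate 2 and 0 in replicate 1.

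Clustered genes were bound more often in replicate 2. Genes alone at their locus were bound in 38.3% of cases in replicate 2 and 21.5% in replicate 1. For loci of 2 genes the shares were 59.5% and 22.6%, and for loci of 3 or more genes 70.7% and 10.1%, although 1 peak can serve several clustered genes. Genes inside an intron of a protein-coding gene (127) and outside protein-coding genes (156) had nearly the same shares, 55.9% and 55.1% in replicate 2 and 17.3% and 18.6% in replicate 1. On the X chromosome 33.3% of 24 genes were bound in replicate 2, against 50% to 60.8% on the other arms.

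tRNA genes closest to a protein-coding promoter had the highest replicate 1 share. The 32 tRNA genes within 500 bp of a protein-coding TSS were bound in 31.2% of cases in replicate 1, those at 500 to 2000 bp in 17.6%, those at 2000 to 5000 bp in 21.1%, and the 110 genes over 5000 bp from one in 12.7%. In replicate 2 these shares were 62.5%, 52.7%, 50.9% and 58.2%. Without the peaks that lay within 500 bp of a protein-coding TSS, 49.3% of tRNA genes were still bound in replicate 2 and 14.1% in replicate 1.

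The strongest loci outside the optimal list had pooled ranks from 3966 to 6255. The strongest pooled peak at a locus with no optimal summit was at tRNA:Gln-TTG-2-1, in an intron on the X chromosome at chrX:3427452-3427523, with pooled rank 3966 and its summit 257 bp upstream. It ranked 6314 in replicate 1 (signal 38.3) and 2339 in replicate 2 (signal 104.3). The alanine and proline cluster of 4 genes from tRNA:Ala-AGC-2-6 to tRNA:Ala-AGC-2-8, at chr3R:17645307-17646755, had pooled rank 4885, replicate 1 rank 7340 (signal 33.8) and replicate 2 rank 6303 (signal 51.9). The neighbouring pair tRNA:Ala-AGC-2-5 and tRNA:Pro-TGG-1-3, at chr3R:17631042-17631750, had pooled rank 6010, with ranks 16357 (signal 20.5) and 4336 (signal 67.4).

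The other such loci had no replicate 1 peak. The 4 glutamate genes tRNA:Glu-TTC-1-5, tRNA:Glu-TTC-1-6, tRNA:Glu-CTC-2-1 and tRNA:Glu-CTC-2-2, at chr2R:19727460-19728958, had pooled rank 5587 and replicate 2 rank 2625 (signal 96.4), and all 4 genes had a replicate 2 summit within 500 bp. This was the only locus with such a strong peak in replicate 2 (a rank within the length of the optimal list) and none in replicate 1. The serine and valine cluster tRNA:Ser-CGA-1-4, tRNA:Val-AAC-2-1 and tRNA:Val-AAC-2-2, at chr2R:19414598-19415343, had pooled rank 6255 and replicate 2 rank 5817 (signal 54.9). The reverse case occurred at tRNA:Leu-CAA-2-2, at chr3L:13214109-13214233, which had replicate 1 rank 3585 (signal 62.6) and no replicate 2 peak within 500 bp. The replicate 1 summit lay upstream, just inside that limit, and the nearest optimal summit was 568 bp from the TSS. The lack of a replicate 2 peak therefore holds for this limit only. The pooled peak within the limit, of rank 26402, was a different peak that did not overlap the replicate 1 peak.

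The largest clusters without an optimal summit differed in how many of their genes were near a replicate 2 summit. The 7 isoleucine and leucine genes at chr2R:13430282-13432794 had a replicate 2 summit near 6 genes (best rank 6941, signal 48.7) and a replicate 1 summit near 1 (rank 10016, signal 27.1). At the 7 arginine and serine genes at chrX:14014814-14017284, 2 had one in replicate 2 (best rank 12846, signal 32.2) and none in replicate 1 or the pooled list. Tied in size were clusters of 6 genes. In the cysteine and lysine cluster at chr3L:3095737-3097590, 5 genes were near a replicate 2 summit (best rank 12960, signal 31.9), and in the arginine and asparagine cluster at chr3R:8139533-8141042 all 6 were (best rank 5121, signal 60.1). Neither had a replicate 1 peak.

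Protein-coding genes of the tRNA pathway were bound at their promoters at about the rate of other protein-coding genes. For RNA polymerase III and its factors, 4 of 25 genes had an optimal summit within 500 bp of a TSS (16%, against 12.2% of protein-coding genes). They were Bdp1 (signal 567.0) and Brf (signal 550.0), which are parts of TFIIIB, Polr3E (signal 426.9), a polymerase III subunit, and Polr2H (signal 197.5), a subunit shared between polymerases. Their replicate 1 and replicate 2 ranks were 367 and 1011 for Bdp1, 564 and 616 for Brf, 569 and 1270 for Polr3E, and 1472 and 4369 for Polr2H.

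Among aminoacyl-tRNA synthetases, which load tRNAs with their amino acid, 5 of 35 genes had an optimal summit (14.3%). IleRS (signal 336.3), SerRS (signal 332.5) and ThrRS (signal 316.7) had replicate 1 ranks 1012, 991 and 911 and no overlapping replicate 2 peak, although they are in the optimal list. GluProRS (signal 225.5) ranked 1226 in replicate 1 and 5141 in replicate 2, and AsnRS (signal 130.8) ranked 4068 and 4031. The strongest peaks of replicate 1, as many as the optimal list holds, gave 5 synthetase genes and those of replicate 2 gave 0, against 14.2% and 10.2% of protein-coding genes. Replicate 1 was thus the higher for protein-coding genes in general.

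Of 22 matched tRNA maturation genes, 2 had an optimal summit (9.09%). Trmt6, a subunit of a tRNA methyltransferase, had a signal of 521.5 and ranked 585 and 672 in replicates 1 and 2.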

How the data were processed

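Both samples are ChIP-seq libraries of CG8281-GFP embryos, 1 group with replicate numbers taken from the labels. Sonication gave fragments of 200 to 800 bp, per the labels. Each replicate's peaks were called alone on dm6, the pooled list came from both replicates, and the irreproducible discovery rate selected the optimal list, per the labels. No source used here gives the aligner, peak caller or thresholds. From the deposited lists came the caller's signal per peak, used only to rank peaks within a list, and the summit offset in bases. The deposited −log10 q column was read and not used further. Read depth is not in these lists.

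Genes came from Ensembl release 115 and sequence from the RefSeq copy of the same assembly. Summits were assigned to every TSS within 500 bp, and loci were joined at 1000 bp. Motif windows were 201 bp. Overlap between lists means at least 1 shared base. The counting code was tested on simulated peaks. The software was Matplotlib 3.10.9, NumPy 2.4.6, SciPy 1.17.1 and pandas 2.3.3 under Python 3.11.15. No p-value was computed, because there is 1 group.

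The members, the 3 gene lists (39, 25 and 30 symbols, of which 35, 25 and 22 matched a protein-coding gene) and the comparisons were chosen with earlier results of these data known. Named loci are all those with an optimal summit, the 5 others with the strongest pooled peak, up to 3 per replicate with a peak in that replicate ranked within the length of the optimal list and none in the other, the 3 largest without an optimal summit (both tied loci named), and all bound genes of the lists except 1 that is not reported here. Other members named as examples were chosen after their values were seen. Alternatives were other TSS windows, peak numbers, peak intervals in place of summits, each replicate alone, and other distances for loci and protein-coding TSSs. Those on single replicates' shares and on their overlap were chosen after seeing the data.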

Additional observations from a re-analysis of the deposited data

How the results depend on the processing

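The share of tRNA genes with an optimal summit, 4.14%, was 1.72% with the stronger upper part of the optimal list, 8.62% with 7842 pooled peaks, 2.07% with a window of 250 bp, 8.28% with 1000 bp, and 1.03% when the peak interval had to overlap the gene. For loci (5.71%) the shares outside the interval were 2.29% with the stronger part, 11.4% with 7842 pooled peaks and 1.71% with overlap. Away from protein-coding TSSs (2.76%) they were 1.03%, 6.21% and 0.69% for the same alternatives, and 5.86% with 1000 bp. Without replicate 1 or replicate 2, the shares were 2.76% to 5.86% of genes, 4% to 8% of loci, 1.38% to 3.79% of genes away from protein-coding TSSs, and 53.3% to 57.1% of summits upstream. In each of these ranges but the last, replicate 2's own strongest peaks gave the higher value.

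For replicate 1 (17.9% of genes) the share was 1.38%, 5.52% and 41.7% with windows of 100, 250 and 1000 bp, 10.3% with its 15000 strongest peaks, 5.17% with overlap and 26.9% by locus. For replicate 2 (55.5%) the matching values were 17.9%, 37.2%, 71%, 31.7% and 32.1%, and 49.3% without peaks near protein-coding TSSs. Replicate 2 was above replicate 1 under each of these alternatives. The share of replicate 2 peaks near tRNA genes that overlap replicate 1 (13.5% within 100 bp) was 28.9% within 500 bp, and 1.92% when a replicate 1 summit had to lie within 100 bp. Of 51 alternatives computed, 25 stayed within the counting interval of the value reported and 26 did not. A wider window or more peaks includes more genes by construction. No paired analysis was possible because there is 1 group. With 2 replicates and no read counts, which replicate is closer to the binding in these embryos cannot be told from these lists.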

Other observations

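Other genes transcribed by RNA polymerase III were looked up after the tRNA values were seen, and none had an optimal summit within 500 bp. snRNA:U6:96Ab and snRNA:U6:96Ac, which encode a spliceosomal RNA, shared a replicate 2 peak of rank 2711 and had no replicate 1 or pooled peak, while snRNA:U6:96Aa had none in any list. RNaseP:RNA, the RNA of the enzyme that trims the 5′ end of tRNA precursors, had only a replicate 2 peak of rank 21011, with its summit 51 bp past its start. RNaseMRP:RNA had ranks 17405 in replicate 1 and 20591 in replicate 2. snRNA:7SKa ranked 3829 (replicate 1), 7075 (replicate 2) and 4397 (pooled), and snRNA:7SKb ranked 22301, 13703 and 25449. snRNA:U6atac had only a replicate 2 peak of rank 28670, with its summit 41 bp from a protein-coding TSS. No peak was found at the genes 7SLRNA:CR32864 and 7SLRNA:CR42652. The 99 annotated rRNA genes on the arms, a class not split here by the polymerase that transcribes it, had no peak either.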
